A study of Homo sapiens with 6 samples.

Results

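Potassium channel genes were taken as the 96 protein-coding genes whose RefSeq symbol starts with KCN, out of 20037 protein-coding genes in the gene table of GRCh38.p14. By symbol they comprise 38 genes of KCNA to KCNH (voltage-gated channels with their KCNAB and KCNE accessory genes), 16 KCNJ genes, 15 KCNK genes, 11 KCNM, KCNN and KCNT genes, 5 KCNQ genes and 11 others. The readout is DNA-RNA hybrid immunoprecipitation sequencing (DRIP-seq), in which the S9.6 antibody pulls down DNA that is paired with RNA in an R-loop. The cells are SH-SY5Y, an established human neuroblastoma line, infected with a lentivirus that expresses the short hairpin shT2 (3 samples) or shNC3 (3 samples) and kept in puromycin. The study concerns stable knockdown of TDP-43, an RNA-binding protein linked to amyotrophic lateral sclerosis. No label states which hairpin is which, so shT2 is read from its name as the TDP-43 knockdown and shNC3 as the negative control. Both hairpins share the parent line, the viral vector, the drug and a digest with 5 restriction enzymes before the pulldown. Whether the 3 samples of each hairpin were infected separately is not stated, so the spread behind each p-value may be technical.

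Potassium channels are membrane pores that let potassium leave the cell and so set the resting potential, end the action potential and limit repetitive firing. Voltage-gated channels open on depolarisation, inward rectifiers (KCNJ) hold the cell near rest, tandem-pore channels (KCNK) carry leak current, and the KCNM, KCNN and KCNT channels open with intracellular calcium or sodium. KCNQ channels carry the M-current, a slow brake on neuronal firing. An R-loop forms when a transcript pairs with its DNA template and displaces the other strand, often over G-rich stretches near gene starts and ends. An R-loop peak at a channel gene therefore measures hybrids at that gene and not the amount of its RNA or of its current.

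The value of each gene was the number of base pairs under peaks in its span plus 2 kb on each side. Raw values in base pairs are given for shT2 samples 1, 2 and 3 and for shNC3 samples 1, 2 and 3, in that order of numbers. Fitted differences are log2 values of shT2 minus shNC3, taken on the scaled covered length plus a pseudocount of 500 bp, and the pseudocount shrinks the difference where coverage is short. "Called" means an adjusted p under 0.05 in limma, with Benjamini-Hochberg adjustment over the 11771 protein-coding genes that had a peak in at least 3 of the 6 samples. The lists held 49068 to 50971 peaks in shT2 and 42717 to 45390 in shNC3, over 72.7 to 78.2 Mb and 62.9 to 70.5 Mb. The genome-wide background recovered from the peak values was 2.995 to 3.02 fragments per base in shT2 and 1.652 to 1.79 in shNC3. This background was higher in shT2, with a ratio of means of 1.742, and is read here as greater depth. No read count was used, and the control behind the peaks is not known, so depth itself was not measured. Depth and hairpin cannot be told apart. TARDBP, which encodes TDP-43, had 9702, 9573 and 7819 bp under peaks in shT2 samples and 11725, 10554 and 10239 bp in shNC3 samples (limma adjusted p = 0.00683), which is no measure of its RNA.

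Fewer potassium channel genes carried R-loop peaks than protein-coding genes at large. A peak in at least 1 sample was found for 45 of the 96 (46.9%), against 13036 of all 20037 (65.1%). The remaining 51 had none, and among them were genes with well-known roles in neurons: KCNQ3, a subunit of the M-current channel, KCND2, which carries the A-type current of many neurons, KCNA2, KCNJ6, KCNK9, KCNN2 and KCNT2. The near-identical copies KCNJ12 and KCNJ18 were also at 0 in all samples, where reads that map to both may be lost. Of the 45, 22 had a peak in all 6 samples, 37 reached the 3 samples needed for the test and 8 had one in 1 or 2 samples only. Coverage differed widely between genes. Averaged over all 6 samples, KCNH2 held 11.0% of the scaled covered length of the family, KCNJ14 6.16% and KCNH1 5.43%.

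Among the 37 tested genes, 10 were longer and 10 were shorter in shT2 and 17 were not called. Of all 11771 tested genes, 24.2% were longer and 27.2% shorter in shT2, 51.3% in all, so the 54.1% of potassium channel genes that were called is close to the share of genes at large. Their median log2 difference was -0.06, against -0.08 over all genes tested. The 3 values of each hairpin did not overlap for 24 of the 37 genes (64.9%), against 65.0% of all genes tested. KCNG3, KCNH4 and KCNJ11 had a peak in every shT2 sample and in no shNC3 sample, a pattern shared by 2.82% of genes tested. KCNA7, KCNB2, KCNK2 and KCNK13 had the opposite pattern, found in 3.22%. Without scaling to total covered length, the median of all genes moved to 0.06 and 60.9% of calls were longer in shT2, against 47.1% with scaling. The potassium channel genes then gave 9 longer and 8 shorter calls. With the lists brought to equal depth, 47.4% of all genes were called (22.4% longer and 25.0% shorter), and 8 potassium channel genes were longer and 12 shorter of 36 tested. In windows of 2 kb around the gene ends alone, 40.0% of all genes were called (14.9% longer and 25.1% shorter), and 9 potassium channel genes were longer and 5 shorter of 28 tested.

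**Figure D1:**
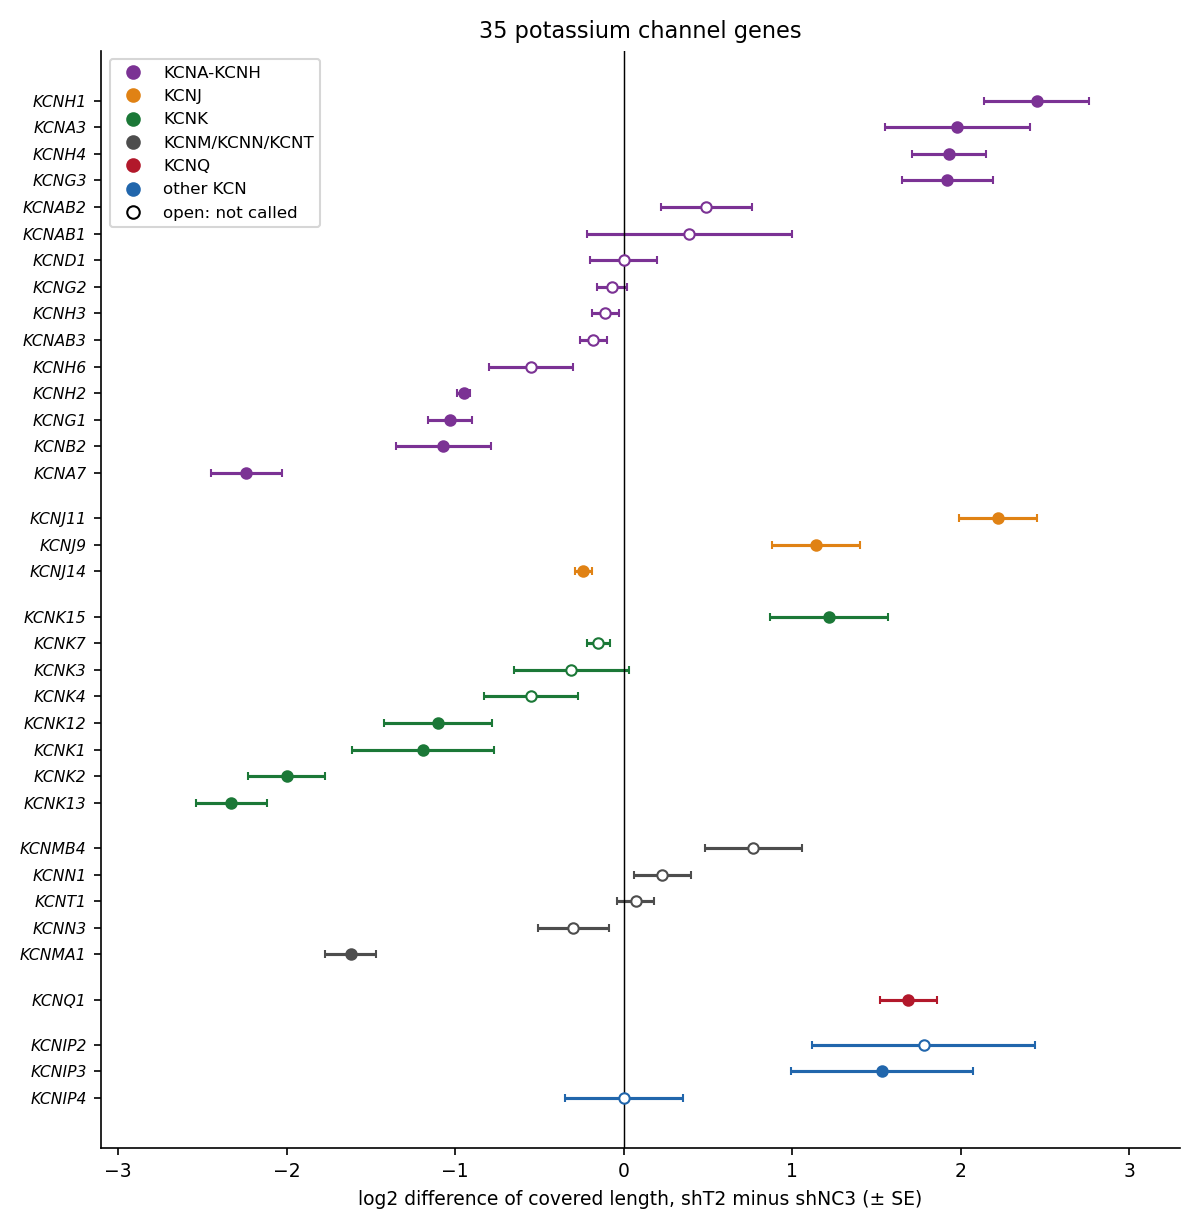
Log2 difference of covered length (shT2 minus shNC3, with its standard error) for 35 of the tested potassium channel genes, grouped by class; filled points passed limma at an adjusted p of 0.05. Points run from KCNH1 at 2.45 down to KCNK13 at the foot of the KCNK class, and for the 7 genes with no peak in one hairpin the plotted size depends on the pseudocount.

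Summed by class, KCNK genes were lower in shT2, the other KCN genes were higher and the voltage-gated genes were close to even. KCNK genes summed to 10.6 ± 0.71 scaled kb in the shT2 samples, against 17.7 ± 3.0 in the shNC3 samples (SD, n = 3 each), a ratio of 0.598. The other KCN genes, of which the 3 tested are KCNIP genes, summed to 7.01 ± 1.6 scaled kb in shT2, against 2.31 ± 1.9 in shNC3, a ratio of 3.03 with no overlap between samples. The KCNA to KCNH genes, which form the longest class, summed to 92.4 ± 1.0 scaled kb in shT2, against 93.6 ± 2.2 in shNC3, although 4 of their 16 tested genes were longer and 4 shorter in shT2. KCNM, KCNN and KCNT genes summed to 19.6 ± 2.6 scaled kb in shT2, against 20.4 ± 1.7 in shNC3, and KCNJ genes to 16.5 ± 0.96 in shT2, against 14.3 ± 0.88 in shNC3. These sums are descriptions with no test.

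**Figure D2:**
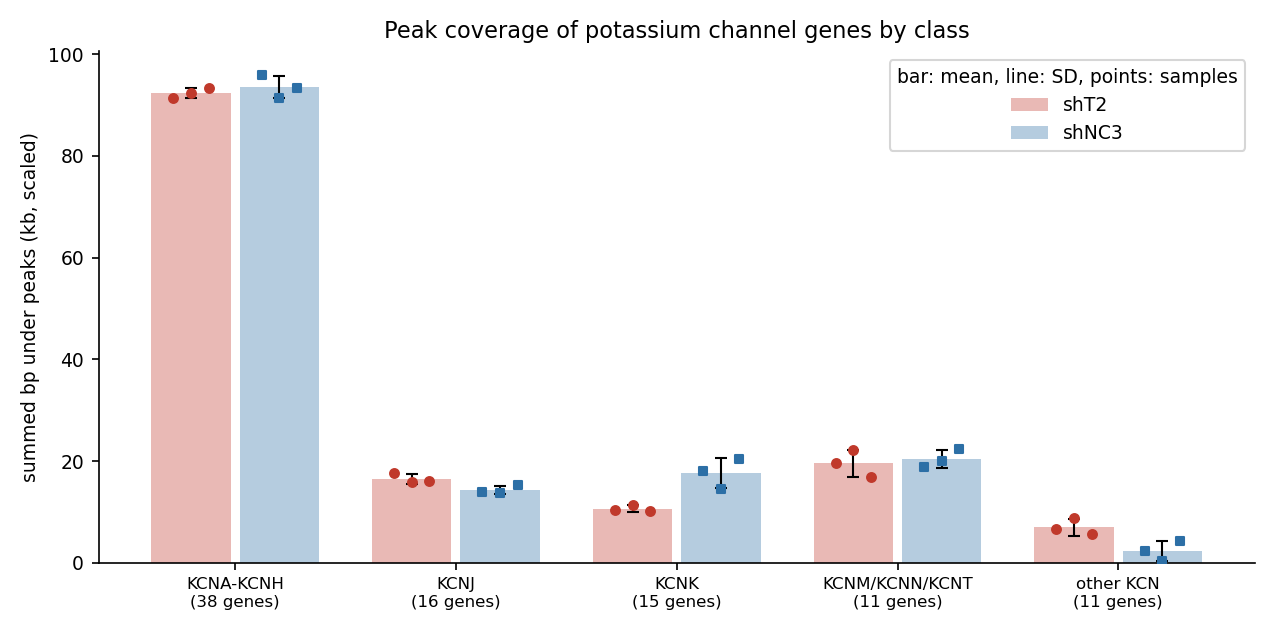
Summed covered length of 5 classes of potassium channel genes, in kb scaled to total covered length; bars are means of 3 samples, lines SD and points single samples, with shT2 left of shNC3. The 3 shT2 samples lie below the 3 shNC3 samples in KCNK (10.6 against 17.7 kb on average), above them in the other KCN genes (7.01 against 2.31 kb) and close to them in KCNA to KCNH (92.4 against 93.6 kb).

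KCNQ1, the pore of the slow delayed rectifier of the heart, lies on chromosome 11 at 2445008 to 2849105 in an imprinted domain and holds the antisense transcript KCNQ1OT1, which silences neighbouring genes on the paternal copy. Its window held 11669, 14664 and 10940 bp under peaks in shT2 and 2888, 2420 and 4223 bp in shNC3. All shT2 samples were above all shNC3 samples (log2 difference 1.69, SE 0.17, limma adjusted p = 0.00024). Most of it came from 1 block at 138 to 149 kb from the lower-coordinate end, outside KCNQ1OT1, with 9396, 9122 and 7083 bp in shT2 and 410, 325 and 399 bp in shNC3. Peaks within KCNQ1OT1 covered 1887, 4257 and 2976 bp in shT2 and 2190, 1563 and 3070 bp in shNC3, and there the hairpins overlapped. The peaks carry no strand, so a hybrid of KCNQ1 and one of KCNQ1OT1 cannot be told apart where the genes overlap. KCNQ3 had no peak, and KCNQ5 had 704 bp in shNC3 sample 3 alone.

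**Figure D3:**
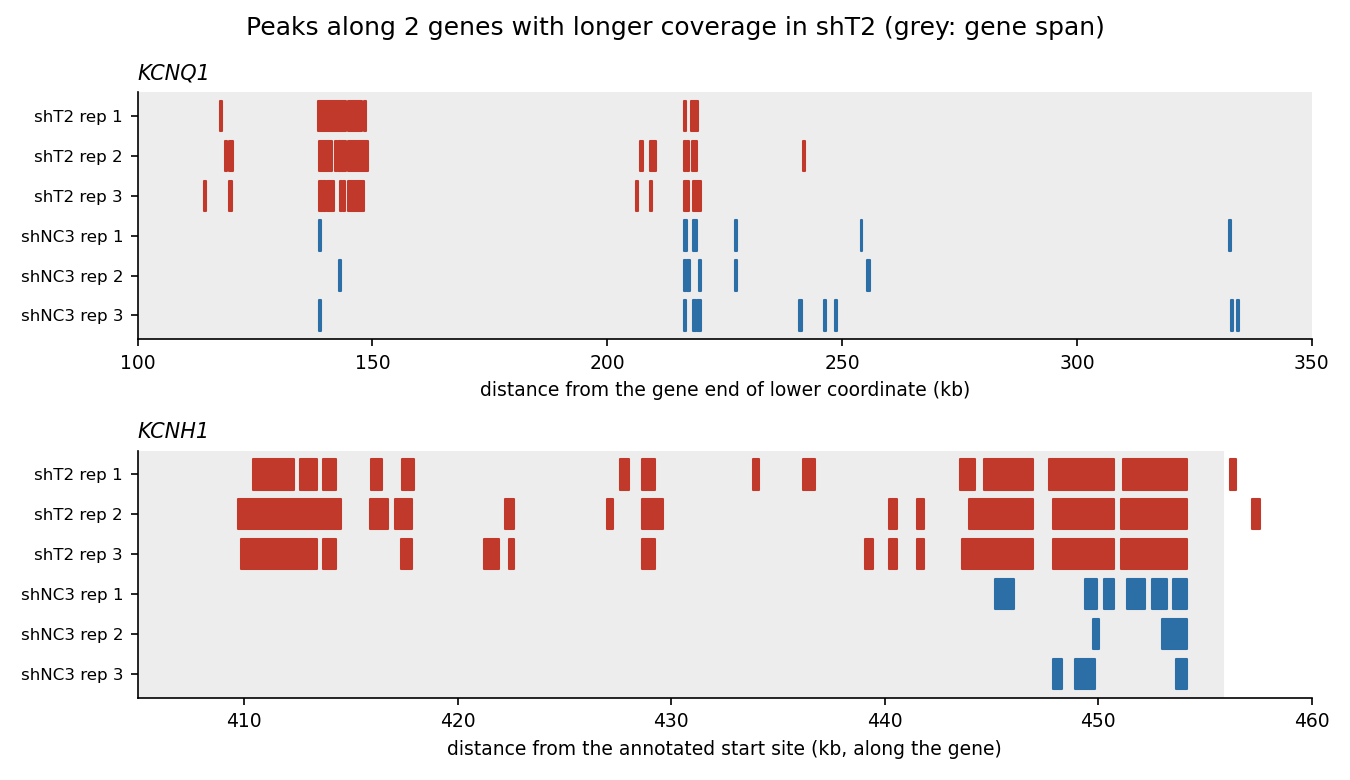
Peaks of each sample along KCNQ1 and KCNH1; the horizontal axis is distance in kb from the lower-coordinate gene end (KCNQ1) or from the annotated start (KCNH1), bars are peaks and grey marks the gene span. The shT2 rows carry long blocks at 138 to 149 kb of KCNQ1 and beyond 410 kb of KCNH1, where shNC3 rows hold short peaks or none.

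The KCNH genes, relatives of the fly ether-a-go-go channel, held changes in both directions. KCNH1, a brain channel whose mutations cause epilepsy and developmental delay, spans 210678314 to 211134148 on the minus strand of chromosome 1. It was covered over 16923, 19477 and 19226 bp in shT2 and 5262, 1777 and 1905 bp in shNC3. The samples did not overlap, and the scaled means differed 5.68-fold (log2 difference 2.45, SE 0.31, limma adjusted p = 0.000657). The peaks sat at the far end of the gene, 410 to 458 kb from its annotated start, with 15639, 18238 and 16629 bp in shT2 and 4178, 1488 and 1905 bp in shNC3. The part of that stretch nearest the start, at 410 to 415 kb, held 3310, 4822 and 4157 bp in shT2 and no peak in any shNC3 sample, and it lies within the span of the noncoding gene LOC105372901. Counted in windows around the gene ends alone, the difference was 0.68 (limma adjusted p = 0.111, range over all alternatives 6.02e-05 to 0.111).

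KCNH2, which encodes the hERG channel that repolarises the heart, showed the smallest p of the family, in the opposite direction. It lies at 150944961 to 150978321 on the minus strand of chromosome 7. Peaks covered 14485, 16204 and 14121 bp in shT2 and 26989, 24980 and 26804 bp in shNC3. No shT2 sample reached any shNC3 sample, and the log2 difference was -0.95 (SE 0.04, limma adjusted p = 1.38e-05). The far end of the gene was covered with both hairpins. There, 6610, 6610 and 7353 bp were covered in shT2 and 7353, 6610 and 7353 bp in shNC3. The gene body at 5.08 to 27.3 kb from the start held 3710, 4636 and 3186 bp in shT2 and 13769, 12274 and 13365 bp in shNC3. In the authors' lists, the highest peak of the far end reached 7.59, 14.5 and 8.35-fold in shT2 and 14.7, 21.5 and 16.0-fold in shNC3. That far-end peak region runs past the 2 kb flank. In the body the highest peak reached 6.88, 6.21 and 5.33-fold in shT2 and 11.5, 10.2 and 12.8-fold in shNC3. The highest peak of shNC3 sample 3, at 19.0-fold, lay at the gene start. These folds are ratios to a background that differed between the hairpins. No test was made of peak height.

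Within that body, 22.5 kb from the gene start, RefSeq annotates an internal start of KCNH2 whose promoter window lay under a peak in all 3 shNC3 samples, over its full 300 bp, and in no shT2 sample. It is printed because it is the potassium channel promoter with the largest difference between the hairpins. A second internal start, 3.81 kb from the gene start, was covered over 300, 300 and 0 bp in shT2 and 300 bp in each shNC3 sample. Both sequences are from RefSeq (GRCh38.p14), minus strand, 5′ to 3′, from 250 bases before to 50 bases after the start, and capitals mark runs of 4 or more G or C.
KCNH2 chr7:150955755-150956054: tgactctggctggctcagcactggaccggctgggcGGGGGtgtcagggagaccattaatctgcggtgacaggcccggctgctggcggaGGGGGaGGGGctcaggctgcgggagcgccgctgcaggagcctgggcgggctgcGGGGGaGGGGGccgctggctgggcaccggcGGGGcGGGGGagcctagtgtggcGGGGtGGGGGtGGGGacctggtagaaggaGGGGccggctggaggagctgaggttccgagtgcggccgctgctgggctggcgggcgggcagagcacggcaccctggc
KCNH2 chr7:150974457-150974756: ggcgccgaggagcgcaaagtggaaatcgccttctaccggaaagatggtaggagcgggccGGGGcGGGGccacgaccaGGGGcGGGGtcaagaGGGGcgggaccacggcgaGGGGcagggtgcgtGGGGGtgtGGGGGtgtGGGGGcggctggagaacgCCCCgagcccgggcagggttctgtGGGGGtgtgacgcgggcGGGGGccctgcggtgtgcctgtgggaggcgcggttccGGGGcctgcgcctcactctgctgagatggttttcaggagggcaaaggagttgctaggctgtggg
The first window holds 11 runs of G and 0 runs of C, at 75.3% GC, and the second 12 runs of G and 1 of C, at 71.7% GC. Their GC skew, the excess of G over C as a share of both, was 0.354 and 0.377. The printed strand, which is the one displaced when a transcript of this strand pairs with its template, is thus the G-rich one in both. Another KCNH2 window, with a GC skew of 0.356 at 39.3% GC, lay under no peak in any sample. Those with a GC skew of 0.076 and 0.2 were touched by a peak in all 6 samples. A link between skew and peaks was not tested.

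The other KCNH genes split. KCNH4, a voltage-gated channel of the brain, had 1257, 1779 and 1440 bp under peaks in shT2 and no peak in shNC3 (limma adjusted p = 0.000405). Part of its covered length, 29.7%, lies inside its neighbour RAB5C-AS1. With peaks under 5-fold enrichment left out, it was covered in too few samples for a test. KCNH3, a close relative of KCNH4, was covered over 6600, 5952 and 6477 bp in shT2 and 6600, 5671 and 6300 bp in shNC3 and was not called (log2 difference -0.11, limma adjusted p = 0.288). Of the covered length of KCNH3, 29.3% lies in its neighbour MCRS1. KCNH6, a relative of KCNH2 named after its values were seen, had 2720, 3936 and 1581 bp in shT2 and 3883, 2933 and 4141 bp in shNC3, with overlap between hairpins (log2 difference -0.55, limma adjusted p = 0.105). It passed at equal depth (-0.89, limma adjusted p = 0.0167), with peaks of a q-value of at most 0.001 (-0.84, limma adjusted p = 0.00501) and without shT2 replicate 2 (-0.77, limma adjusted p = 0.0363).

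**Figure D4:**
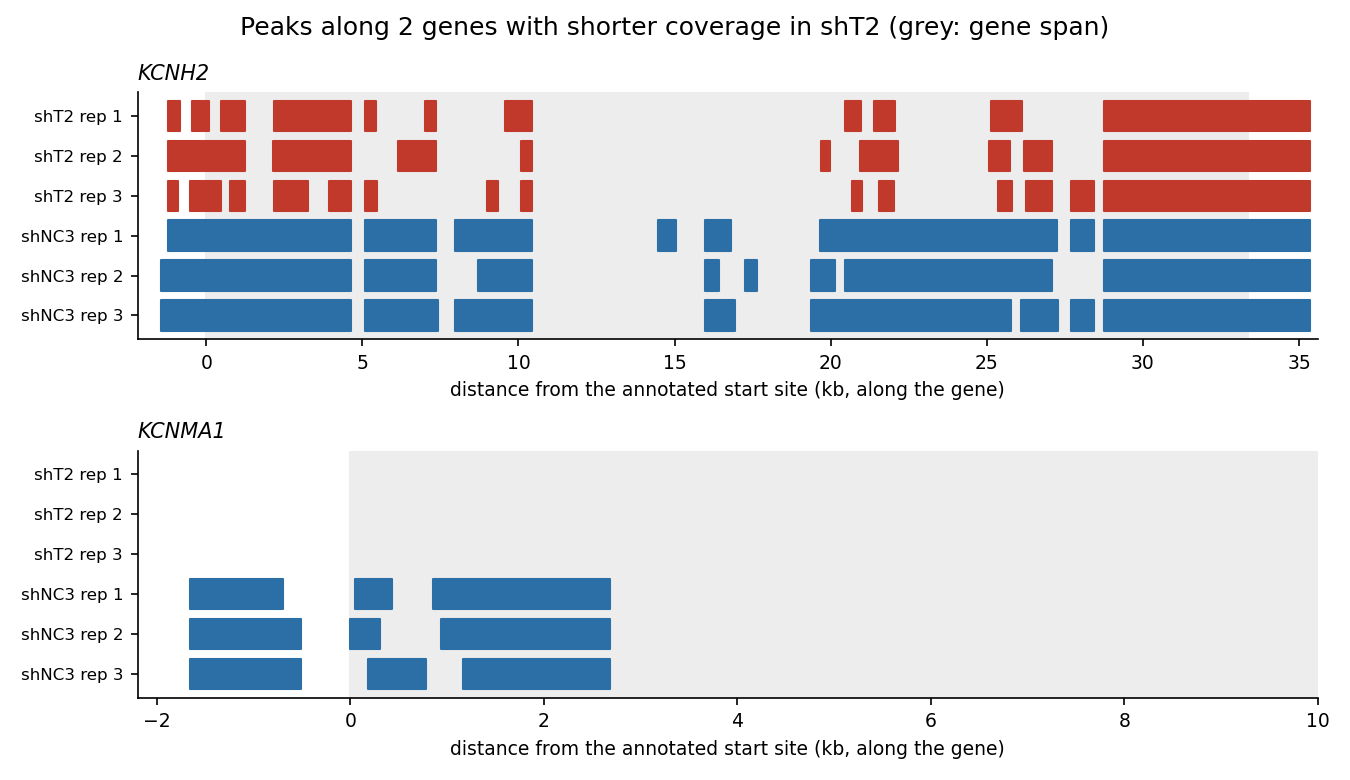
Peaks of each sample along KCNH2 and around the start of KCNMA1; the horizontal axis is distance in kb from the annotated start, bars are peaks and grey marks the gene span. Both hairpins cover the far end of KCNH2, the shT2 rows are sparse in its body, and the 3 shT2 rows are empty around the start of KCNMA1 while the shNC3 rows hold 3169 to 3273 bp.

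Of the remaining voltage-gated genes, KCNA3 changed at its start. KCNA3 encodes the channel that holds the membrane potential of T lymphocytes and is also found in neurons. It had 3556, 3156 and 3556 bp under peaks in shT2 and 0, 409 and 1222 bp in shNC3, with no overlap (log2 difference 1.98, SE 0.43, limma adjusted p = 0.00744). All of it was 1 region from -0.956 to 2.6 kb relative to the annotated start. The promoter window of the gene start was covered over 300, 18 and 300 bp in shT2 and 0 bp in all shNC3 samples. That of a start 1.49 kb further in was covered over 300 bp in every shT2 sample and 0, 0 and 21 bp in shNC3. Both windows are shown as the potassium channel promoters most gained in shT2, from RefSeq (GRCh38.p14), minus strand, 5′ to 3′, with runs of 4 or more G or C in capitals.
KCNA3 chr1:110674891-110675190: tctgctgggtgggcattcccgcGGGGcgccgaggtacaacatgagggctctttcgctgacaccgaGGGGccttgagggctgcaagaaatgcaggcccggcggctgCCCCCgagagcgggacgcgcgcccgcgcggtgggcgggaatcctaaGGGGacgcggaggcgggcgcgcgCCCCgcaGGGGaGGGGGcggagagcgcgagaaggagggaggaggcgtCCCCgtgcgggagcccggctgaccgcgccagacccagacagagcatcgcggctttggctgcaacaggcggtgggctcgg
KCNA3 chr1:110673405-110673704: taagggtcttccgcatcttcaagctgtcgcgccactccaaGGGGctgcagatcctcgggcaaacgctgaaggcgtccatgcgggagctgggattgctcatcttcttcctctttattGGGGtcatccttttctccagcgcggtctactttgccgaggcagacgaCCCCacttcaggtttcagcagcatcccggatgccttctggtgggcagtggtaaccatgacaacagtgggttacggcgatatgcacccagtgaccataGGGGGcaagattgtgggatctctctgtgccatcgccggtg
The window at the gene start is 73.7% GC with 37 CG dinucleotides, and the inner one 57.3% GC with 16. Their GC skew was 0.195 and 0.012, in that order.

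KCNG genes encode subunits that form no channel alone and modify those of the KCNB genes. KCNG1 was covered over 3389, 2905 and 3077 bp in shT2 and 5572, 6837 and 6287 bp in shNC3, with no overlap (log2 difference -1.03, SE 0.13, limma adjusted p = 0.000752). With peaks of at least 5-fold enrichment alone, its adjusted p was 0.0752 (limma, range over all alternatives 0.000602 to 0.0752). KCNG3 had 1671, 1990 and 915 bp in shT2 and no peak in shNC3 (limma adjusted p = 0.00101). Its peaks flank the gene start, and 77.0% of their length lies in the span of MTA3, so they cannot be assigned to KCNG3 alone. KCNB2, a delayed rectifier with which such subunits pair, had 1 peak region 129 to 130 kb inside the gene, with 0 bp in all shT2 samples and 347, 386 and 929 bp in shNC3 (limma adjusted p = 0.0163). KCNA7 had 0 bp in shT2 and 1755 bp in each shNC3 sample (limma adjusted p = 0.000171). All of that length lies past the far end of KCNA7 and outside its span, in 1 peak region that runs on past the 2 kb flank.

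The accessory genes of the voltage-gated class, 3 KCNAB and 5 KCNE genes, gave 3 tested genes and no call, where 51.3% of all genes were called. KCNAB3, a cytoplasmic beta subunit, was covered over 7804, 8708 and 8097 bp in shT2 and 9243, 8358 and 7622 bp in shNC3 (log2 difference -0.18, limma adjusted p = 0.0959). Without shNC3 replicate 3 it passed, with -0.25 (limma adjusted p = 0.0251). None of the 5 KCNE genes had a peak.

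**Figure D5:**
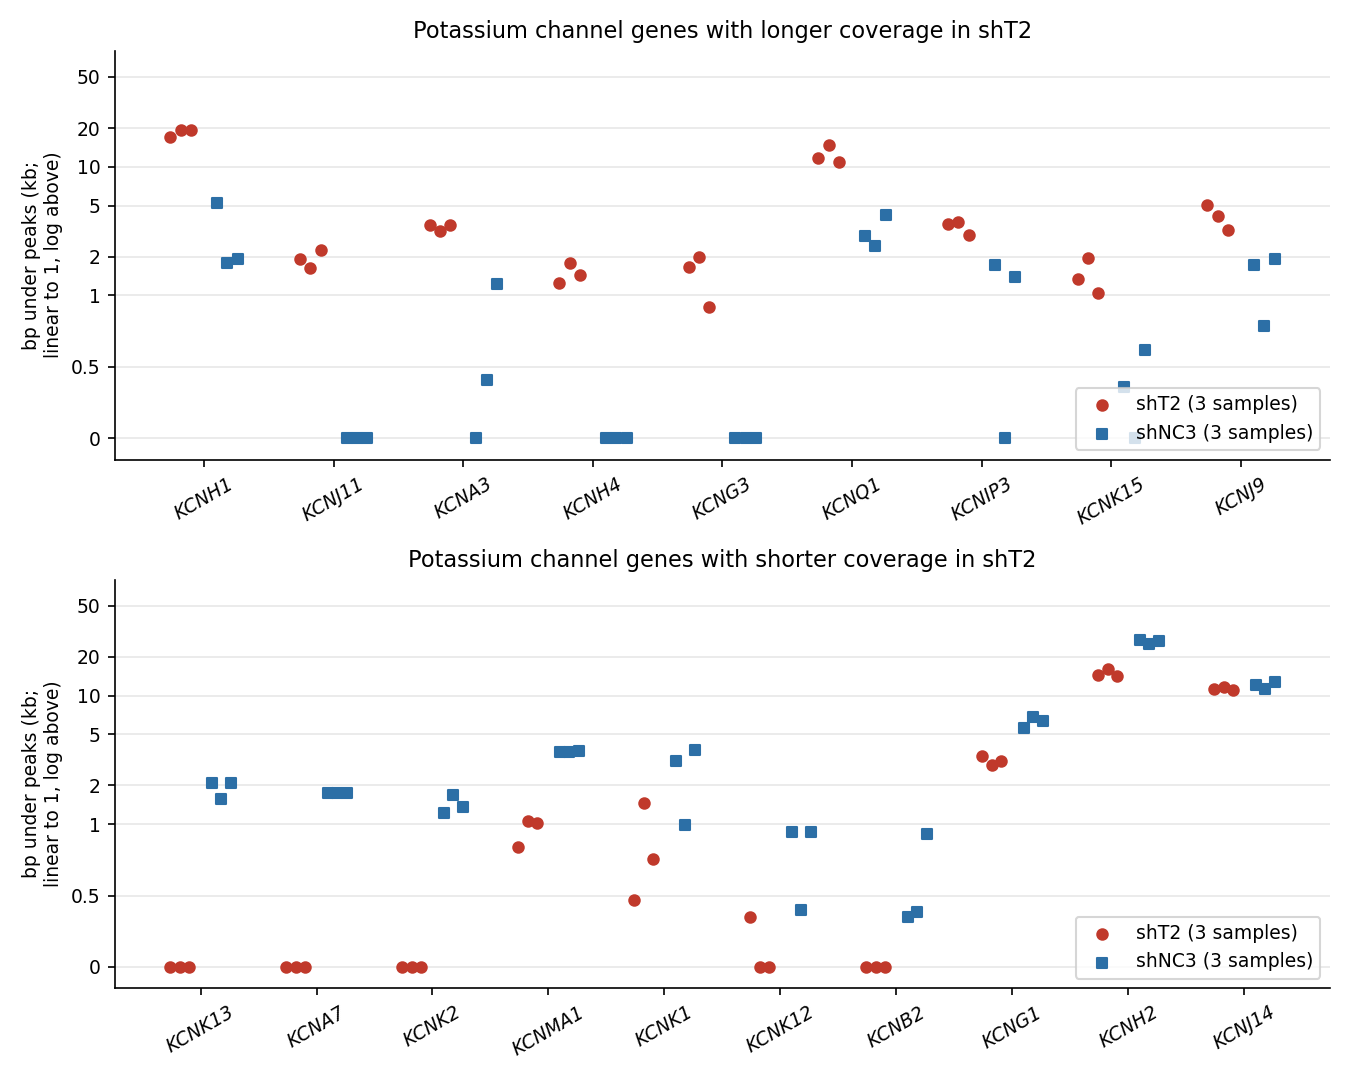
Base pairs under peaks (in kb, linear to 1 and logarithmic above) in each sample for 19 of the called potassium channel genes, shT2 left of shNC3, with 9 longer genes above and the 10 shorter genes below. Points of one hairpin lie apart from those of the other except in KCNK1, and in KCNJ14, whose unscaled values overlap.

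Inward rectifiers were nearly bare: 13 of 16 KCNJ genes had no peak, and the other 3 were all called, where 51.3% of all genes tested were. KCNJ11, the pore of the ATP-sensitive channel that couples metabolism to excitability, had 1932, 1639 and 2271 bp in shT2 and 0 bp in shNC3 (limma adjusted p = 0.000258). Of its covered length over all samples, 38.1% lies in the span of this short gene and the rest in its 2 kb flanks. With the gene span alone it had too few covered samples for a test. KCNJ9, a G-protein-gated channel of the brain, had 5020, 4170 and 3196 bp in shT2 and 1710, 782 and 1933 bp in shNC3, with no overlap (log2 difference 1.14, SE 0.26, limma adjusted p = 0.00912). Its peaks lie near both gene ends, and 15.1% of their length is in IGSF8. KCNJ14 was covered over 11272, 11584 and 11050 bp in shT2 and 12102, 11322 and 12724 bp in shNC3. The raw values overlap and the scaled ones do not, and KCNJ14 was called (log2 difference -0.24, SE 0.05, limma adjusted p = 0.00891). Without scaling it was -0.09 (limma adjusted p = 0.224, range over all alternatives 0.00632 to 0.224), and 44.6% of its covered length lies in other genes, GRWD1 among them.

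Leak channel genes of the KCNK class gave 1 longer and 4 shorter calls among 8 tested genes, 62.5% called against 51.3% of all genes tested. KCNK13, a halothane-inhibited leak channel, had 0 bp in shT2 and 2101, 1571 and 2101 bp in shNC3 (limma adjusted p = 0.00016), in 1 region 8.69 to 10.8 kb from its start. KCNK2, a leak channel opened by membrane stretch, had 0 bp in shT2 and 1230, 1684 and 1362 bp in shNC3 (limma adjusted p = 0.000438), 119 to 121 kb from its start. In both genes the peaks lay inside the span and away from its ends, and neither gene had a peak in any shT2 sample.

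KCNK1 had 469, 1466 and 755 bp under peaks over its whole window in shT2 and 3080, 992 and 3766 bp in shNC3. Within 2 kb of its start it had 0, 734 and 365 bp in shT2 and 2331, 992 and 1890 bp in shNC3, with no overlap. Over the whole window the samples overlap, since shT2 sample 2 exceeds shNC3 sample 2, and the call (log2 difference -1.19, SE 0.42, limma adjusted p = 0.0476) was lost under 8 of 16 alternatives. Leaving out 1 library gave adjusted p-values of 0.129 and 0.139 without shNC3 replicates 1 and 3, and of 0.133, 0.0506 and 0.108 without shT2 replicates 1, 2 and 3 (limma, range over all alternatives 0.00234 to 0.486). Its promoter was under a peak in shNC3 alone, over 0 bp in each shT2 sample and over 300, 77 and 0 bp in shNC3. It is shown with that of KCNMA1 below because both genes were shorter in shT2 at their annotated start, again from RefSeq (GRCh38.p14), 5′ to 3′, plus strand for KCNK1 and minus strand for KCNMA1, with runs of 4 or more G or C in capitals.
KCNK1 chr1:233613856-233614155: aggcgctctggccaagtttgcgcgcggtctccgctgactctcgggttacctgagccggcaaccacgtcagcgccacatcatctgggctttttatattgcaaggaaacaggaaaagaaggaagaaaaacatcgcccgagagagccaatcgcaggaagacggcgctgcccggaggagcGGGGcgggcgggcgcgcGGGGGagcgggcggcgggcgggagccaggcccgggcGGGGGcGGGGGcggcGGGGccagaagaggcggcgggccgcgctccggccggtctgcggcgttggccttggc
KCNMA1 chr10:77637759-77638058: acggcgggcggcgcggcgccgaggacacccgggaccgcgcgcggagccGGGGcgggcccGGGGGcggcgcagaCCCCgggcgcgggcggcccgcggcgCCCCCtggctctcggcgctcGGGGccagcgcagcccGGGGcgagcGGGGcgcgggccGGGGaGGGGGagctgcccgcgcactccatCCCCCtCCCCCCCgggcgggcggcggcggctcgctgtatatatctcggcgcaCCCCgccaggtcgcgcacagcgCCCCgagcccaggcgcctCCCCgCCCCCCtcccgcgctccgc
The KCNK1 window has 38 CG dinucleotides at 70.7% GC, and the KCNMA1 window 54 at 85.7% GC. Their GC skew was 0.198 and -0.035, in that order. KCNK12, a relative of KCNK13, had 352, 0 and 0 bp in shT2 and 947, 398 and 947 bp in shNC3 (log2 difference -1.10, SE 0.32, limma adjusted p = 0.0247). Its peaks cannot be assigned to KCNK12 alone. The gene was no longer called without shNC3 replicate 1 (limma adjusted p = 0.073) or 3 (0.0768) and without shT2 replicate 2 (0.0829) or 3 (0.0804). KCNK15, which gives no current when expressed alone, was the gene of this class that was longer in shT2, with 1345, 1953 and 1035 bp in shT2 and 361, 0 and 615 bp in shNC3 (log2 difference 1.22, SE 0.35, limma adjusted p = 0.0233). The call of KCNK15 was lost under 6 of 16 alternatives. At equal depth its difference was 0.91 (limma adjusted p = 0.112), and without shT2 replicates 1 and 2 its adjusted p was 0.0605 and 0.0844. With a pseudocount of 100 bp the limma adjusted p was 0.0615. With peaks of at least 5-fold enrichment it was 0.0991, and with the gene span alone 0.0646. Of the covered length of KCNK15, 27.7% lies in other genes, RIMS4 and KCNK15-AS1. KCNK7 lay wholly under 1 peak in every sample, all 6965 bp of its window, which includes parts of MAP3K11 and EHBP1L1.

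Among channels opened by calcium or sodium, KCNMA1 was the 1 gene called of 5 tested. KCNMA1 encodes the pore of the BK channel, which opens with both voltage and calcium, and spans 76869602 to 77637808 on the minus strand of chromosome 10. It had 843, 1060 and 1028 bp in shT2 and 3619, 3660 and 3723 bp in shNC3, with no overlap (log2 difference -1.62, SE 0.15, limma adjusted p = 0.000176). From -1.66 to 2.68 kb relative to its start, shT2 samples had 0 bp and shNC3 samples 3169, 3210 and 3273 bp. The printed promoter falls in a gap between those peaks, with 53 bp under a peak in shNC3 sample 2 and 0 bp in the other samples. A region of 450 bp, 143 kb from the start, was covered whole in all 6 samples. In the authors' lists, the highest peak in KCNMA1 reached 12.8, 10.2 and 11.1-fold in shNC3, at this 450 bp region and not at the start. The shT2 peaks at the same region reached 4.47, 4.02 and 3.44-fold. The highest shT2 peaks, at 5.12, 4.88 and 3.67-fold, lay elsewhere in the gene, where shNC3 had none. Around the start, shNC3 peaks reached 7.1, 7.94 and 6.28-fold. Fold is a ratio to background, which differed between the hairpins. At KCNK7, which was not called, the highest fold was also lower in shT2 (30.9, 26.7 and 32.0, against 35.1, 35.1 and 40.1 in shNC3). At KCNH3, not called either, the folds overlapped (17.0, 16.7 and 20.0 in shT2, against 21.5, 18.1 and 18.6 in shNC3). KCNN1, given below, went the other way. No test was made of peak height.

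KCNT1, a sodium-activated channel mutated in severe infant epilepsy, had 11116, 11625 and 8281 bp in shT2 and 9280, 7734 and 9304 bp in shNC3, with overlap (log2 difference 0.07, limma adjusted p = 0.626). Its longest region, close to the far end of the gene, held 5803, 5484 and 5404 bp in shT2 and 5803, 5194 and 5096 bp in shNC3. KCNN3, a small-conductance calcium-activated channel, had 880, 1461 and 1500 bp in shT2 and 1500 bp in each shNC3 sample (log2 difference -0.30, limma adjusted p = 0.259). That too is a single region inside the gene, present with both hairpins. KCNMB4, the BK beta subunit of neurons, named after its values were seen, had 842, 1839 and 685 bp in shT2 and 351, 332 and 390 bp in shNC3, which do not overlap, with a log2 difference of 0.77 that missed the threshold (limma adjusted p = 0.059).

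KCNIP genes encode calcium sensors that bind the channels of the KCND class. KCNIP3, which also acts as a transcriptional repressor, had 3612, 3712 and 2936 bp around its start in shT2 and 1716, 0 and 1381 bp in shNC3, with no overlap (log2 difference 1.53, SE 0.54, limma adjusted p = 0.0469). It was no longer called without shT2 replicate 1, 2 or 3 (limma adjusted p = 0.111, 0.122 and 0.0905), at equal depth (0.0527), without scaling (0.0774) and with a pseudocount of 100 bp (0.117). Without shNC3 replicate 2, which had no peak there, its difference was 0.85 (limma adjusted p = 0.00789). KCNIP2 had 2849, 5555 and 2457 bp in shT2 and 292, 0 and 2655 bp in shNC3, where shNC3 sample 3 overlaps shT2 (log2 difference 1.78, SE 0.66, limma adjusted p = 0.0572). Without that sample the difference was 2.58 (limma adjusted p = 0.00268), and without shNC3 replicate 1 or 2 it was 1.55 and 1.22 (limma adjusted p = 0.148 and 0.173). Without shT2 replicates 1, 2 and 3 it was 1.87, 1.48 and 1.96 (limma adjusted p = 0.102, 0.179 and 0.0888). KCNIP4 had 390, 0 and 335 bp in shT2 and 316, 350 and 0 bp in shNC3, and was not called (limma adjusted p = 0.992). All of that length lies in the span of PACRGL, so it cannot be assigned to KCNIP4 alone.

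Potassium channel promoters as RefSeq lists them had a GC content close to that of promoters at large. The promoter table held 72 of the 96 genes with 110 promoters of 300 bases, and 22199 promoters of 15843 genes in all. Median GC content was 63.5% for potassium channel promoters and 62.3% for all. A run of 4 G on either strand (GGGG or CCCC) was present in 93.6% and 93.5%, and a run of 5 (GGGGG or CCCCC) in 76.4% and 65.5%. The 15 potassium channel promoters that a peak touched in any sample, from 9 genes, had a median GC of 74.3%, and all 15 held a run of 5. Among them are KCNG3, with 6 bp in shT2 sample 2 alone, and KCNMA1, with 53 bp in shNC3 sample 2 alone. KCNA3, KCNH2 and KCNK4 each gave more than a single window. No value for all promoters touched by a peak is given, so these are not shown to be traits of this family. A TG repeat of 6 bases (TGTGTG or CACACA), the kind of sequence TDP-43 binds in RNA, was in 20.0% of those 15, in 21.8% of potassium channel promoters and in 15.4% of all promoters. A site of any of the 5 restriction enzymes (BsrGI TGTACA; EcoRI GAATTC; HindIII AAGCTT; SspI AATATT; XbaI TCTAGA) was in none of the 15, in 20.0% of potassium channel promoters and in 18.4% of all. A match is a string of letters in the window and not a bound or cut site.

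Genes whose products assemble with potassium channels also changed in both directions. Of 35 such partner genes, 21 were tested, of which 6 were longer (ABCC8, LRRC26, VAPA, AKAP9 and SENP2 among them), 6 shorter (CNTNAP2, DLG4, ANK2, CALM3, PIP5K1C, HCN2) and 9 not called, with a median log2 difference of -0.05. The 57.1% called compares with 51.3% of all genes tested. At gene ends alone VAPA turned to -0.57 (limma adjusted p = 0.0129) and DLG4 to 0.13 (limma adjusted p = 0.166). LRRC26, an auxiliary subunit of the BK channel, had 2430, 2194 and 2552 bp in shT2 and 0, 70 and 0 bp in shNC3 (log2 difference 2.4, SE 0.22, limma adjusted p = 0.000155). Its change and that of KCNMA1, whose protein it binds, thus ran in opposite directions. ABCC8, the sulphonylurea receptor that surrounds the KCNJ11 pore, is encoded next to KCNJ11 on chromosome 11, so that their 2 kb flanks overlap and can share peaks. It had 399, 1056 and 617 bp in shT2 and 0 bp in shNC3 (limma adjusted p = 0.00904). HCN2, a pacemaker channel, had 9345, 11807 and 10349 bp in shT2 and 18711, 16805 and 17991 bp in shNC3 (log2 difference -0.89, SE 0.07, limma adjusted p = 8.1e-05). CALM3, a calmodulin gene, and DLG4, the synaptic scaffold PSD-95, fell by 0.71 and 0.46 on the log2 scale (limma adjusted p = 0.000424 and 0.000554), but DLG4 turned in sign at gene ends, as given above.

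Of 34 genes of other potassium transport, 20 were tested, with 7 longer, 7 shorter and 6 not called and a median log2 difference of 0.07. The 70.0% called stands beside 51.3% of all genes tested, of which 24.2% were longer and 27.2% shorter. ATP1B3, a beta subunit of the sodium-potassium pump, had 2620, 1693 and 3064 bp in shT2 and 0 bp in shNC3 (limma adjusted p = 0.000327). FXYD5, a regulator of the pump, had 0 bp in shT2 and 2275, 1514 and 3271 bp in shNC3 (limma adjusted p = 0.000313). SLC24A1, a sodium-calcium exchanger that moves potassium, had 6482, 8617 and 6525 bp in shT2 and 1918, 1590 and 856 bp in shNC3. It was longer by 1.88 on the log2 scale (limma adjusted p = 0.000525). At gene ends alone SLC24A1 was not called (1.26, limma adjusted p = 0.133).

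Markers of the neuroblastoma cell states differed between the hairpins as well. Of 10 tested mesenchymal markers, 7 were shorter and none longer in shT2 (27.2% and 24.2% of all genes tested), with a summed level of 29.6 ± 2.1 scaled kb in shT2, against 76.8 ± 3.3 in shNC3 (SD, n = 3 each), and PRRX1, YAP1 and CD44 were at 0 in all shT2 samples. Of 12 tested noradrenergic markers, 6 were longer and 1 shorter (24.2% and 27.2% of all genes tested), with 138 ± 6.0 scaled kb in shT2, against 119 ± 4.6 in shNC3. TH, which makes the noradrenaline precursor, was at 0 in all samples, as were COL1A2, COL3A1 and SNAI2. The part of this shift and of the depth in the values of the channel genes was not tested. In the equal-depth setting, 18 of the 20 genes passed again with an unchanged sign. That setting drops weak peaks but leaves the widths of the others unchanged. It therefore cannot show what depth adds to peak length.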

How the data were processed

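Peaks were deposited as 1 list per sample (3 shT2, 3 shNC3). Per the submitters' processing notes the authors used Bowtie2 2.4.4, SAMtools, MACS2 2.2.6 and hg38, with the control for peak calling not given in the sources used here. Each deposited peak has a score, the fold enrichment (a ratio), a −log10 p-value and a −log10 q-value, as the authors' caller wrote them, with q-values up to 0.01.

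The members and gene lists were chosen with earlier results of these data known. Covered bp per gene span plus 2 kb was multiplied to bring each sample to the mean total covered length, and log2(scaled bp + 500) was fitted with limma 3.58.1 (R 4.3.3; trend, robust, no covariates) for genes with a peak in at least 3 of 6 samples. Genes named were those past the threshold whose hairpins did not overlap (10 per direction), the longest gene of each class, the 5 longest that did not pass, those present with 1 hairpin alone and a fixed list, with up to 4 genes of each other list. Others are named as chosen after their values were seen: the 8 genes with peaks in 1 or 2 samples, KCNK1, KCNH6, KCNMB4, KCNN1, and the further partner genes. Some genes that enter the fits and counts, and the sum of KCNQ genes, are not reported here.

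Replicate numbers did not pair the samples, since same-numbered deviations correlated at -0.023, -0.064 and -0.008. Scaled values correlated at 0.955 to 0.968 within a hairpin and 0.777 to 0.784 between hairpins. The background, which stands for depth here, was recovered from fold and p for 99.79% to 99.86% of peaks. For equal depth, peaks were kept whose summit would still pass at the lowest background of 1.652, with widths unchanged. The promoter table gave strand and sequence for 72 members, and no exons or introns were assigned.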

Additional observations from a re-analysis of the deposited data

How the results depend on the processing

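The calls of 5 of the 20 genes, among them KCNA3, KCNG3, KCNH2 and KCNMA1, held under all 16 alternatives, and the other 15 were lost or not testable under at least 1. The replicate block gave 11 longer and 10 shorter potassium channel genes and kept all 20 calls. Leaving out each library gave 8 to 11 longer and 8 to 11 shorter. Equal depth gave 8 longer and 12 shorter, and peaks of at least 5-fold enrichment 8 and 7.

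With gene ends alone, 9 genes were longer and 5 shorter (28 tested against 37, so several body peaks fall outside), all genes gave 1572 longer calls, other transport genes 3 longer and 4 shorter, and the median of potassium channel genes was 0.18. The ratio of class sums, shT2 over shNC3, was then 0.943 for KCNA to KCNH, 1.34 for KCNJ and 0.816 for KCNK. The call of KCNJ14 was lost (-0.15, limma adjusted p = 0.0753).

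With peaks of at least 5-fold enrichment, all genes gave 1846 longer and 1955 shorter calls, partner genes 2 longer and transport genes 4 shorter. KCNJ turned to a ratio of 0.921, KCNA to KCNH was 0.898 and the other KCN genes 10.3. KCNAB3 turned to 0.56 (limma adjusted p = 0.418).

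Without scaling, all genes gave 2044 shorter calls and the potassium channel median was 0.07. Class ratios were 1.10 for KCNA to KCNH, 1.28 for KCNJ and 1.07 for KCNM, KCNN and KCNT. KCNH3 turned to 0.03 (limma adjusted p = 0.756). With the gene span alone, ratios were 1.03 for KCNA to KCNH and 0.454 for KCNK. The cause of these moves was not tested. Covered length is no measure of signal strength, a digest before the pulldown can set peak ends, and 3 samples against 3 cannot go below p = 0.1 in an exact permutation test.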

Other observations

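KCNN1, a small-conductance calcium-activated channel gene named after its values were seen, had 6590, 7574 and 5528 bp under peaks in shT2 and 4071, 4475 and 6477 bp in shNC3, with overlap (log2 difference 0.23, limma adjusted p = 0.291; 0.32 and 0.0474 at gene ends alone). The peak that reaches its start from outside differed more than the covered length shows. It was 11288 bp wide in each shT2 sample and the widest peak at the gene was 4225, 4219 and 3933 bp in shNC3, while the window held 3133 bp of it in all 6 samples. The highest fold of a peak touching the window was 23.3, 20.8 and 24.9 in shT2 and 5.02, 7.92 and 8.38 in shNC3, in the authors' lists. Whether its summit lies inside the window was not tested, and no test was made of peak height.

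Genes with a peak in 1 or 2 samples were not tested. KCNC1, a fast channel of interneurons, had 904, 632 and 0 bp in shT2 and 0 bp in shNC3. KCNMB3, a BK beta subunit, had 0, 867 and 336 bp in shT2 and 0 bp in shNC3. KCNH8 (613 bp) and KCNS1 (446 bp) had a peak in shT2 sample 2 alone. KCNC4 (327 bp) and KCNK5 (294 bp) had one in shNC3 sample 3 alone.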
